A study of Mus musculus with 4 samples.

Results

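The collagen gene family was followed in medullary thymic epithelial cells (mTECs) by taking every row of the deposited count table whose gene symbol has the form *Col*, a type number, the letter a and a chain number. This rule uses the name alone and found 43 genes among the 23337 in the table. The cells came from the thymus of 4-week-old C57BL/6 mice and were sorted as CD45-EPCAM+UEA-1+Ly51-, that is, as epithelial cells that bind the medullary lectin UEA-1. The label of genotype was wild type (WT) for 2 libraries and *Sirt6*-/- for the other 2. According to the methods of the study, the latter were *Sirt6* cKO mice, in which *Foxn1*-Cre deletes a floxed *Sirt6* in thymic epithelial cells (TECs), and the controls were littermates or wild-type mice of the same age that lacked Cre. *Sirt6* encodes a chromatin-bound deacetylase. Whether animals were pooled for a library was not given in the sources used here.

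Collagens are triple-helical proteins of the extracellular matrix, and each gene encodes 1 chain. Fibroblasts secrete the fibrillar types I, III and V, which form the cables of connective tissue. Epithelial cells rest on a basement membrane whose sheet is built from type IV collagen, and they hold on to it with hemidesmosomes that contain the transmembrane collagen XVII and with anchoring fibrils of collagen VII. In the thymus, mTECs also transcribe many genes of other tissues at low levels, so that developing T cells meet these antigens, and cartilage collagens are among the tissue-restricted products of this kind. Levels are given as CPM (counts scaled to library size after TMM normalization) when libraries are compared and as TPM (abundance corrected for transcript length) when genes are compared. The log2 fold change (log2 FC) is the deletion group over WT, with its standard error (SE), and a nominal or unadjusted p is one not adjusted for the number of genes.

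*Sirt6* itself had 622 counts in WT 1, 755 in WT 2, 882 in the first and 835 in the second library labelled as its deletion, with a log2 FC of 0.37 (SE 0.32). The counts cover the whole gene, so they do not separate the floxed exons from the rest. The targeted gene was therefore not shown to be lower there, so the 2 libraries are called cKO-labelled (cKO 1 and cKO 2) and each direction rests on the labels. Where 4 values follow each other, their order is WT 1, WT 2, cKO 1, cKO 2. Total counts lay between 61102704 and 65907745 per library. The 11 mTEC markers summed to between 21580 and 23460 TPM. Most of this sum came from *H2-Aa*, an MHC class II gene (15270, 14860, 16770 and 15200 TPM), so it mainly follows that gene. Of the 11 markers, 3 (27.3%, namely *Cd80*, *Aire* and *Epcam*) were higher and none (0) lower in the cKO-labelled libraries at a nominal p of 0.05 from edgeR. The shares over all genes tested were 5.27% and 3.32%. *Cd80*, a marker of mature mTECs, had 4508, 4469, 7434 and 9226 counts (log2 FC 0.94, SE 0.20) and passed with each library left out in turn. *Aire* missed the threshold without WT 1 or cKO 2, and *Epcam* without WT 1, WT 2 or cKO 2. The 9 macrophage and dendritic cell markers summed to 11230 TPM in WT 1, 6710 in WT 2, 4259 in cKO 1 and 4514 in cKO 2. Most of each sum came from *Lyz2* (9532, 5941, 3664 and 3955 TPM), so it mainly follows that gene. Of the 9 genes, 5 (55.6%, beside 3.32% of all genes) were lower at the same threshold (*Lyz2*, *Cd68*, *C1qa*, *C1qb* and *Emr1*), although the sort took CD45- cells. The other 4 were not called, with log2 FCs of -0.56 (*Csf1r*), -0.36 (*Flt3*), -0.20 (*Itgax*) and 0.27 (*Ptprc*). *Lyz2* and *Cd68* passed with each library left out in turn, while *C1qa*, *C1qb* and *Emr1* missed the threshold without cKO 1, *C1qa* also without cKO 2 and *Emr1* also without WT 1. In such bulk samples, fewer cells of a type and less RNA per cell cannot be told apart.

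Collagens were minor transcripts of these cells. All 43 genes together held 0.0717% of the counts in WT 1, 0.0985% in WT 2, 0.113% in cKO 1 and 0.105% in cKO 2. In WT 1 a count was seen for 42 of them, and in each other library for all 43. The 5 highest by mean TPM over the 4 libraries were *Col1a1* (44.4 TPM), which encodes the main chain of fibrillar type I collagen, *Col17a1* (32.4 TPM), *Col3a1* (28.2 TPM), *Col4a1* (24.5 TPM) and *Col6a2* (23.2 TPM). Epithelial, basement membrane and fibroblast-type genes thus stood side by side at the top. *Col1a1* (32.1, 49.5, 46.6 and 49.3 TPM) was the highest in each of the 4 libraries. The order below it differed between libraries, with *Col6a2* next in both WT libraries and *Col17a1* (15.2, 30.3, 40.7 and 43.3 TPM) next in both cKO-labelled ones. At the low end, *Col24a1*, a minor fibrillar chain, had the lowest value in WT 1 and WT 2, *Col4a4* in cKO 1 and *Col4a6* in cKO 2.

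**Figure D1:**
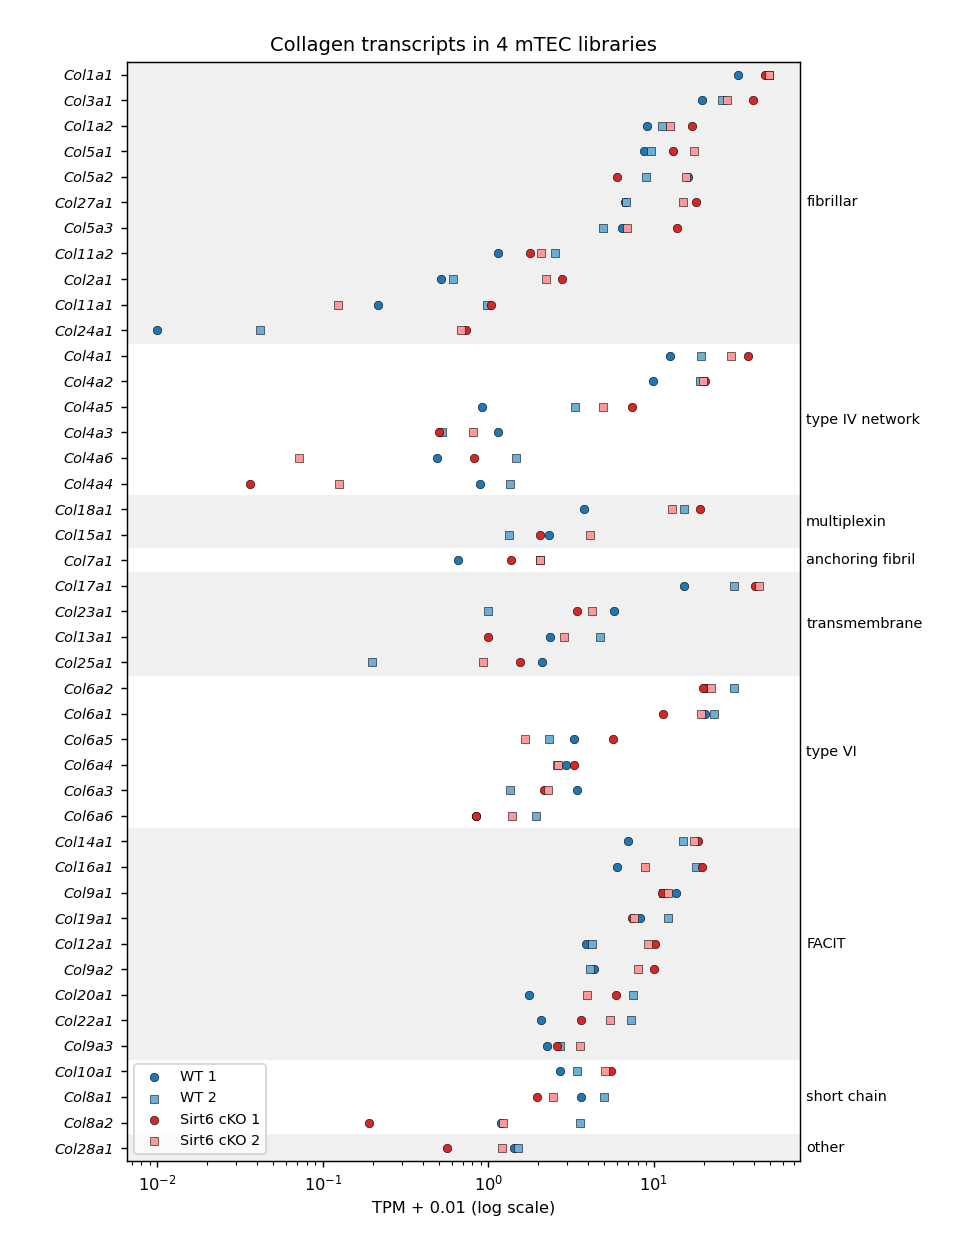
Level of each of the 43 collagen genes (rows, grouped by structural class) in each of the 4 libraries (points), as TPM + 0.01 on a log axis. *Col1a1* is the highest in each library (44.4 TPM on average), the lowest point belongs to *Col24a1* in both WT libraries, to *Col4a4* in cKO 1 and to *Col4a6* in cKO 2, and WT 1 and WT 2 lie apart in many rows.

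All 43 genes passed the filter on low counts. *Col24a1* (0, 7, 144 and 142 counts) passed it only through the cKO-labelled libraries, where it was high, and the counts of higher collagens that include it carry that limit. At a nominal p of 0.05 from edgeR's quasi-likelihood test, 8 collagens (18.6%) were higher in the cKO-labelled libraries and 1 (2.33%) was lower, where 5.27% of the 18547 genes tested were higher, 3.32% were lower and 8.58% were either. The higher genes were *Col2a1*, *Col4a1*, *Col5a1*, *Col9a2*, *Col12a1*, *Col17a1*, *Col24a1* and *Col27a1*, and the lower gene was *Col4a4*. The number of higher collagens was 3 without cKO 1 and 5 without cKO 2, and *Col4a4*, *Col12a1* and *Col27a1* were called with each library left out in turn. The calls over all genes also shifted in number and direction with the library left out. At an adjusted p of 0.05, taken over all genes, none was called (0 of 43, against 0.00539% of all genes). With DESeq2, 4 were called, of which 3 were higher, against 1.83% of all genes in either direction and 1.03% higher, namely *Col27a1*, *Col12a1*, *Col4a4* and *Col4a1*. The CPM of both cKO-labelled libraries lay above both WT libraries in 15 collagens (34.9%) and below both in 5 (11.6%), where the shares over all genes were 21.6% and 20.3%. The median log2 FC of the family was 0.25, beside -0.0047 over all genes, and 27 of the 43 values were above 0, where 49.6% of all genes were. The split depended on scaling. With upper quartile normalization, 6 collagens were higher and 2 lower, while the share of higher genes among all calls went from 61.4% to 48.4%. The methods of the study call the 2 samples of a group independent, without saying whether each came from separate animals, so these p-values measure the spread between these samples.

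**Figure D2:**
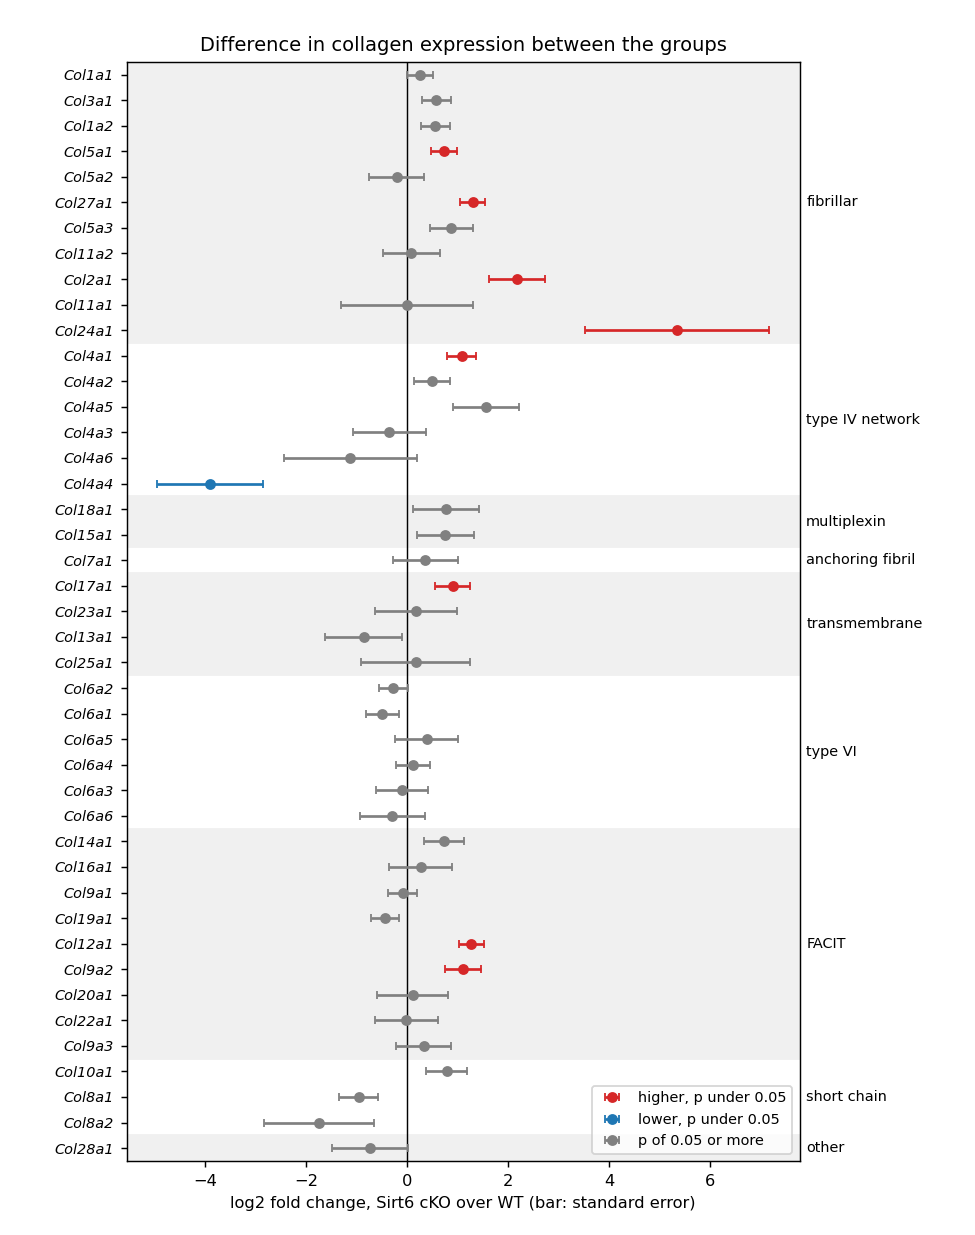
Log2 fold change between the cKO-labelled libraries and WT (points) with its SE (bars) for each collagen gene, in the same order and classes as the plot of levels. Red marks the 8 genes that were higher and blue the 1 gene that was lower at a nominal p of 0.05, and *Col24a1* (5.34) and *Col4a4* (-3.91) stand at the ends.

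The epithelial and basement membrane group held 10 genes, namely the 6 type IV chains with *Col7a1*, *Col15a1*, *Col17a1* and *Col18a1*. Of these, 2 (20%) were higher and 1 (10%) was lower, beside 5.27% and 3.32% of all genes. The lower gene was *Col4a4*, which passed the filter only with the WT libraries. The other 7 did not pass a nominal p of 0.05, and the median log2 FC of the 10 was 0.62. *Col17a1* (chromosome 19, 47646344 to 47692094, minus strand), the hemidesmosome collagen, stood at 38.1 CPM in WT 1, 73.7 in WT 2, 101 in cKO 1 and 107 in cKO 2. The groups did not overlap, but WT 1 lay well below WT 2. The mean went from 55.9 ± 25.2 to 104 ± 4.15 CPM (mean ± SD of 2 libraries each), a log2 FC of 0.90 (SE 0.35). Its unadjusted p was 0.0463 in edgeR, and of the fits with 1 library left out, only the fit without WT 2 passed 0.05. The call was also lost with upper quartile normalization (unadjusted p = 0.0620 in edgeR) and library size alone (unadjusted p = 0.0689 in edgeR). The log2 FC was 0.48 without WT 1, 1.45 without WT 2, 0.94 without cKO 1 and 0.84 without cKO 2.

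*Col7a1*, the chain of anchoring fibrils, was low, at 2.74, 8.45, 5.73 and 8.62 CPM. The groups overlapped, and the log2 FC was 0.36 (SE 0.64). *Col18a1* encodes a basement membrane proteoglycan chain whose end is cleaved to endostatin, and it stood at 9.81, 38.2, 49.2 and 32.7 CPM. Again WT 1 was the low library, and the log2 FC of 0.77 (SE 0.65) was 0.07 without WT 1 and 2.06 without WT 2, where it passed 0.05. *Col15a1*, the related chain of the other multiplexin, stood at 5.65, 3.16, 4.99 and 9.90 CPM, with a log2 FC of 0.76 (SE 0.56). None of these 3 genes passed a nominal p of 0.05.

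The 6 type IV chains lie in the genome as 3 pairs that point away from each other, an arrangement known for this subfamily. By GENCODE M21 (GRCm38, which is mm10), the ends of *Col4a1* (chromosome 8, 11198423 to 11312826, minus strand) and *Col4a2* (11312805 to 11449287, plus strand) overlap by 22 bases. Between *Col4a4* (chromosome 1, 82448423 to 82586849, minus strand) and *Col4a3* (82586921 to 82722059, plus strand) lie 71 bases. Between *Col4a6* (chromosome X, 141165403 to 141474076, minus strand) and *Col4a5* (141475385 to 141689234, plus strand) lie 1308 bases. The promoter windows of *Col17a1* and of 5 type IV chains, all but *Col4a3*, are shown because paired genes start close to each other. Each runs 5′ to 3′ on the strand of its gene, from 250 bases before the start, and comes from RefSeq on GRCm38.p6. Capitals mark matches on either strand to the GC box GGGCGG, the CCAAT box CCAAT and the TATA box TATAAA.
*Col4a1*, chr8:11312777-11313076, minus strand: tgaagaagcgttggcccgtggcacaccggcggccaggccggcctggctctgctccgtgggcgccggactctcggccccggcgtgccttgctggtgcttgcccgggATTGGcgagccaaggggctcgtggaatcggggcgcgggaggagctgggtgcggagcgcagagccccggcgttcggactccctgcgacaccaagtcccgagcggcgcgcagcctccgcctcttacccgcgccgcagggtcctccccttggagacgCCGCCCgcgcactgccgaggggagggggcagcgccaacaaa
*Col4a2*, chr8:11312555-11312854, plus strand: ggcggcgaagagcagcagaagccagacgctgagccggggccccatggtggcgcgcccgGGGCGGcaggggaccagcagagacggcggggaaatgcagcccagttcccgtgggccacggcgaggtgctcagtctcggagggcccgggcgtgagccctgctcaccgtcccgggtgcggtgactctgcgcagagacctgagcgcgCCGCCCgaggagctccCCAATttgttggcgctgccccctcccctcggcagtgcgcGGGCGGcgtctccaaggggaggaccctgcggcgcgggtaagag
*Col4a4*, chr1:82586800-82587099, minus strand: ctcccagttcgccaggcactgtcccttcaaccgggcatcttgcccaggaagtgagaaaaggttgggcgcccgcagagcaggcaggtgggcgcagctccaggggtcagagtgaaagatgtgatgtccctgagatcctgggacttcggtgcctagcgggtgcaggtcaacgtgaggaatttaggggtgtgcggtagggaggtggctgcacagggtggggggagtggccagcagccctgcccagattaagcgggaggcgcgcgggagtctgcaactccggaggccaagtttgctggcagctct
*Col4a5*, chrX:141475169-141475468, plus strand: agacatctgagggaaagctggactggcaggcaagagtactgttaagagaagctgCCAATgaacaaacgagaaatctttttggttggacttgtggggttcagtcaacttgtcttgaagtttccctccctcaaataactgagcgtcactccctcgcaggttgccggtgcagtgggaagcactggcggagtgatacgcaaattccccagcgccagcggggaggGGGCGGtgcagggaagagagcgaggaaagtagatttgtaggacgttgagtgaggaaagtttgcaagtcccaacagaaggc
*Col4a6*, chrX:141474027-141474326, minus strand: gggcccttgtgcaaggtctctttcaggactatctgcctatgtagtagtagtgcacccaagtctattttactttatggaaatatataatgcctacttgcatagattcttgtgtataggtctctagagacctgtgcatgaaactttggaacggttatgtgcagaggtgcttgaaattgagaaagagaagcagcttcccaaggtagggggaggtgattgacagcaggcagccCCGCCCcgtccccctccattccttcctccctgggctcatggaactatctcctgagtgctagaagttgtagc
*Col17a1*, chr19:47691993-47692292, minus strand: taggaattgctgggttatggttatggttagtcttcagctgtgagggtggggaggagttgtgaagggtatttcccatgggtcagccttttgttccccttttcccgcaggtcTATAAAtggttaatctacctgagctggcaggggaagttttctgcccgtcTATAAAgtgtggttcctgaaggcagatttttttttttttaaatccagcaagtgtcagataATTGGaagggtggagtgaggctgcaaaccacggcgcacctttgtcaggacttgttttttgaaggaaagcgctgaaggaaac

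The windows of *Col4a1* and *Col4a2* share 78 bases and were 74.0% and 73.7% G or C. Neither held a TATA box. The window of *Col4a2* held 3 GC boxes and that of *Col4a1* 1. The GC box of *Col4a1* lies in the shared bases and is the same site as 1 of the 3. The window of *Col4a4* held none of the 3 motifs. The window of *Col17a1* was 46.3% G or C and held 2 TATA boxes. A window was matched for 35 of the 43 collagens, with 38 windows in all. A GC box was in 60.5% of these windows and in 35.7% of all 32851 promoter windows of the same length, a CCAAT box in 34.2% and 37.4%, and a TATA box in 13.2% and 13.6%. These are matches of letters only.

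Within the *Col4a1* and *Col4a2* pair, which encodes the chains of the basement membrane network found in most tissues, *Col4a1* stood at 38.4 CPM in WT 1, 56.7 in WT 2, 112.5 in cKO 1 and 88.15 in cKO 2. The groups did not overlap. The mean was 47.5 ± 12.96 CPM for WT and 100.3 ± 17.2 for the cKO-labelled group (± SD, n = 2 each), a log2 FC of 1.08 (SE 0.28). The unadjusted p was 0.0110 in edgeR (adjusted p = 0.54), and without cKO 1 it was 0.0581, with a log2 FC of 0.89. *Col4a2* stood at 29.1, 54.7, 59.8 and 57.9 CPM, where WT 2 lay close to the cKO-labelled libraries. Its log2 FC of 0.49 (SE 0.35) did not pass a nominal p of 0.05 and was 0.08 without WT 1 and 1.02 without WT 2, where it passed.

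The chains of *Col4a3*, *Col4a4* and *Col4a5* form the network of the kidney filter and the inner ear. *Col4a4* had 207 counts in WT 1, 300 in WT 2, 6 in cKO 1 and 27 in cKO 2, or 3.16, 4.71, 0.0994 and 0.421 CPM. It passed the filter on low counts only with the WT libraries, where it was high. Its level fell by 3.91 on the log2 scale (SE 1.04, unadjusted p = 0.0116 in edgeR, adjusted p = 0.54). The size rested on few counts, and the log2 FC was -3.22 without cKO 1, -5.30 without cKO 2, -4.19 without WT 1 and -3.59 without WT 2, with a nominal p below 0.05 in each of these fits. Its neighbour *Col4a3* had 295, 127, 117 and 202 counts, so that the groups overlapped, and its log2 FC was -0.35 (SE 0.72). Exons of *Col4a3* overlap those of *C430014B12Rik* on the other strand by 563 bases, and reads from such a pair cannot be told apart without strand.

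On chromosome X, *Col4a5* had 177, 613, 1316 and 928 counts, or 2.70, 9.63, 21.8 and 14.5 CPM. Both cKO-labelled libraries lay above WT 2, which lay above WT 1. The log2 FC of 1.56 (SE 0.66) had a nominal p of 0.0603 in edgeR and stood at 0.89 without WT 1 and 2.74 without WT 2, where it passed 0.05. *Col4a6*, the chain of smooth muscle and epidermal basement membranes, had 96, 276, 149 and 12 counts, with overlapping groups and a log2 FC of -1.13 (SE 1.32). The difference between the members of a pair was not tested.

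**Figure D3:**
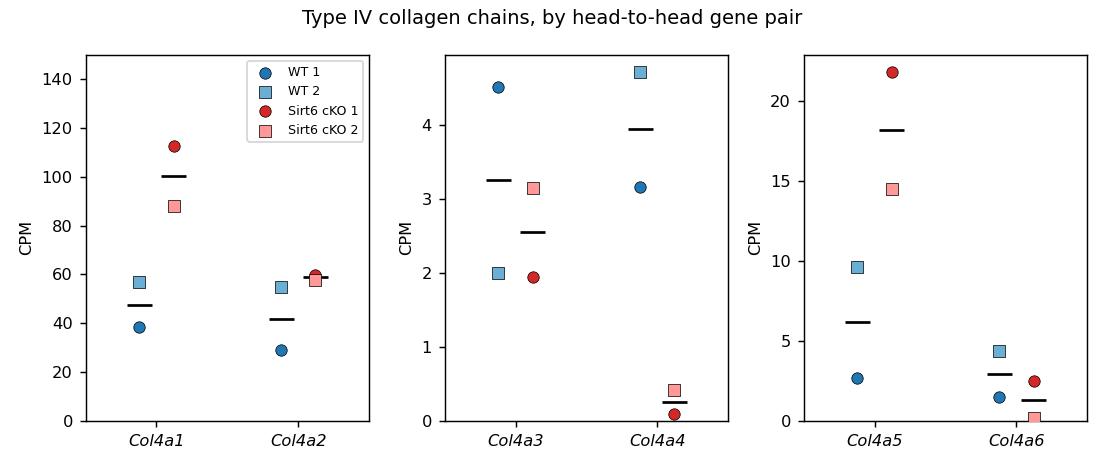
CPM of the 6 type IV collagen chains in each library (points), with the mean of each group (horizontal lines), by pair of neighbouring genes. *Col4a1* and *Col4a4* are the chains that passed a nominal p of 0.05, in opposite directions, while *Col4a2*, *Col4a3*, *Col4a5* and *Col4a6* did not.

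Of the 11 fibrillar chains, 4 were higher (5.27% of all genes were) and 7 did not pass a nominal p of 0.05, and none of them (0) was lower. The groups did not overlap in 7 of the 11, each with the cKO-labelled libraries above WT, as in 21.6% of all genes. Both counts include *Col24a1*, which passed the filter only through the cKO-labelled libraries. The median log2 FC was 0.58. The abundant connective tissue chains were not among the 4. *Col1a1* had 4556, 6629, 6062 and 6778 counts, so that only WT 1 was low, and its log2 FC of 0.25 (SE 0.26) was -0.04 without WT 1. *Col1a2*, the partner chain of type I, stood at 21.6, 25.6, 40.1 and 29.4 CPM (log2 FC 0.56, SE 0.29). *Col3a1*, the chain of type III, stood at 50.25, 64.5, 101.7 and 69.7 CPM, with a log2 FC of 0.58 (SE 0.28). In both of these genes cKO 1 was the high library and the unadjusted p was 0.110 and 0.0900.

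The type V chains, which help to set the width of type I fibrils, differed among themselves. *Col5a1* (chromosome 2, 27886425 to 28039514, plus strand) had 2215, 2311, 3020 and 4289 counts, and rose from 35.1 ± 1.75 to 58.5 ± 11.9 CPM (mean ± SD of 2 libraries each), with cKO 2 as the high library. Its log2 FC was 0.74 (SE 0.26, unadjusted p = 0.0322 in edgeR). It lost this threshold without WT 1 (0.66), WT 2 (0.79) or cKO 2 (0.50), and also with upper quartile normalization (unadjusted p = 0.0527 in edgeR), library size alone (unadjusted p = 0.0513 in edgeR) and both fits of limma on TPM. Exons of *Col5a1* overlap those of *Gm13372* on the other strand by 113 bases. *Col5a2* stood at 48.6, 26.5, 18.0 and 47.2 CPM with no separation of the groups (log2 FC -0.20, SE 0.54). *Col5a3* stood at 17.9, 13.5, 38.4 and 19.2 CPM, with cKO 1 as the high library, and its log2 FC of 0.87 (SE 0.42) was 0.29 without cKO 1 and 1.28 without cKO 2, where it passed 0.05.

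The other 3 fibrillar chains that rose are known from cartilage and bone. *Col27a1* (chromosome 4, 63214004 to 63334991, plus strand), a chain of cartilage, had 1540, 1471, 3789 and 3339 counts. It rose from 23.3 ± 0.291 to 57.4 ± 7.58 CPM (mean ± SD of 2 libraries each), with a log2 FC of 1.2998 (SE 0.25, unadjusted p = 0.00255 in edgeR, adjusted p = 0.54). Without any 1 library its log2 FC stayed between 1.16 and 1.41 and passed a nominal p of 0.05 each time. *Col2a1* (chromosome 15, 97975602 to 98004695, minus strand), the main collagen of cartilage, had 79, 88, 392 and 334 counts and a log2 FC of 2.17 (SE 0.56, unadjusted p = 0.00995 in edgeR). Without cKO 1 the p was 0.0755 and the log2 FC 2.01.

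*Col24a1* (chromosome 3, 145292472 to 145552011, plus strand), which is expressed with type I in developing bone, had 0 counts in WT 1, 7 in WT 2, 144 in cKO 1 and 142 in cKO 2. A count of 0 in WT 1 allows up to 0.0458 CPM (3 counts), against 2.39 and 2.21 CPM in the cKO-labelled libraries. The ratio of the summed counts, scaled to library size, was 42.4, with an exact 95% interval from 20.3 to 106 that covers counting error only. The fitted log2 FC of 5.34 (SE 1.82, unadjusted p = 0.0298 in edgeR) depends on the prior count, went to 10.19 without WT 2 and 4.34 without WT 1, and missed 0.05 without cKO 1 (0.0940) or cKO 2 (0.0794). The other cartilage chains of the fibrillar class did not separate the groups. *Col11a1* had 46, 202, 209 and 25 counts and *Col11a2* 192, 404, 276 and 337 counts.

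The FACIT collagens sit on the surface of fibrils and link them to the matrix around. Of 9 genes, 2 (22.2%, beside 5.27% of all genes) were higher and 7 did not pass a nominal p of 0.05. *Col12a1* (chromosome 9, 79598991 to 79718831, minus strand), found along type I fibrils, had 1359, 1407, 3283 and 3150 counts and rose from 21.4 ± 0.953 to 51.75 ± 3.74 CPM (mean ± SD of 2 libraries each). Its log2 FC was 1.27 (SE 0.24, unadjusted p = 0.00261 in edgeR, adjusted p = 0.54), and it passed a nominal p of 0.05 without each library in turn, between 1.199 and 1.33. *Col9a2* (chromosome 4, 121039385 to 121055322, plus strand), a chain of the cartilage collagen IX, had 359, 321, 765 and 642 counts and a log2 FC of 1.11 (SE 0.36, unadjusted p = 0.0251 in edgeR). It missed 0.05 when any 1 library was left out, with log2 FCs from 0.93 without cKO 1 to 1.25 without cKO 2 and 1.14 without WT 1 or 1.05 without WT 2.

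The 2 other chains of collagen IX had smaller differences. *Col9a1* had 1598, 1258, 1207 and 1374 counts (log2 FC -0.09, SE 0.28), and *Col9a3* had 193, 219, 204 and 297 counts (0.33, SE 0.54). Exons of *Col9a3* overlap those of *Tcfl5* on the other strand by 234 bases. The 2 FACIT genes with the highest TPM were *Col14a1*, at 20.75, 43.2, 54.9 and 51.4 CPM, and *Col16a1*, at 14.4, 42.0, 46.8 and 21.03 CPM. In both, WT 1 was low, and neither passed a nominal p of 0.05. The log2 FC of *Col14a1* was 0.73 (SE 0.39) and passed 0.05 without WT 2 (1.36), and that of *Col16a1* was 0.27 (SE 0.63), and turned to -0.34 without WT 1 and -0.42 without cKO 1.

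None of the 6 type VI chains, which form beaded filaments near cell surfaces, was called in either direction (0 of 6, also 0 at an adjusted p of 0.05 in DESeq2), and their median log2 FC was -0.19. *Col6a1* stood at 37.1, 41.0, 20.8 and 34.7 CPM, with both cKO-labelled libraries below WT (log2 FC -0.495, SE 0.33). *Col6a2* stood at 35.2, 50.9, 33.6 and 37.5 CPM with overlapping groups (-0.28, SE 0.28), and *Col6a3* at 17.0, 6.54, 10.7 and 11.3 CPM (-0.10, SE 0.51). The short-chain collagens include those that form hexagonal lattices, and *Col8a1* stood at 8.59, 11.5, 4.61 and 5.675 CPM. Its log2 FC was -0.96 (SE 0.39, unadjusted p = 0.0528 in edgeR), and it passed 0.05 without WT 1 (-1.18). *Col8a2* stood at 2.38, 6.95, 0.3645 and 2.40 CPM, with a log2 FC of -1.75 (SE 1.10), which was -3.69 and passed without cKO 2. The 11 collagens not described singly had log2 FCs between -0.87 and 0.78, and none (0) of them was called.

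Epithelial and fibroblast-type collagens were then compared by their sums. The summed TPM of the 10 epithelial and basement membrane collagens was 47.7 in WT 1, 93.5 in WT 2, 129 in cKO 1 and 117 in cKO 2. That of the 12 fibroblast-type collagens (the chains of types I, III and V, *Col6a1*, *Col6a2*, *Col6a3*, *Col12a1*, *Col14a1* and *Col16a1*) was 153, 202, 217.5 and 208. The ratio of the second sum to the first was 3.20 in WT 1, 2.16 in WT 2, 1.685 in cKO 1 and 1.78 in cKO 2, so it was lower in both cKO-labelled libraries, and the WT libraries differed by more than the nearest libraries of the 2 groups did. In the fibroblast-type list 2 genes (16.7%, beside 5.27% of all genes) were higher and 10 did not pass a nominal p of 0.05. The median log2 FC of this list was 0.41. Markers of fibroblasts other than collagens were lower in sum in both cKO-labelled libraries, at 769, 821, 623.5 and 714 TPM for 15 genes. Of the 14 tested, 2 were lower (*Lum* and *Cd34*, 14.3% beside 3.32% of all genes) and 0 higher. The log2 FC was below 0 in 9 and above 0 in 5. Both cKO-labelled libraries lay below both WT libraries in 4 of the 14 (28.6%) and above in 2 (14.3%), where the shares over all genes were 20.3% and 21.6%. The 2 above were *Mfap4* (log2 FC 1.62) and *Fap* (0.55). *Cd34* missed 0.05 without cKO 1 (-0.62) or WT 2 (-0.64). The highest fibroblast marker was *Dcn* (decorin), which at 502, 565, 420.5 and 524 TPM made up most of their sum. The defining receptor *Pdgfra* had 134, 86, 191 and 36 counts, while *Twist2* was at 0 in all 4 libraries. The endothelial markers summed to between 182 and 234 TPM, and those of pericytes and smooth muscle to between 868 and 945. Those of thymocytes summed to between 693 and 1421. The 6 cTEC markers summed to between 712 and 999 TPM, with a median log2 FC of -0.175. Of these, 2 were higher (*Dll4* and *Ly75*, 33.3% beside 5.27% of all genes). The other 4 had log2 FCs below 0 (*Prss16* -0.41, *Ctsl* -0.35, *Psmb11* -0.25 and *Ccl25* -0.10). *Dll4* (log2 FC 1.08, SE 0.32) missed 0.05 without WT 2 or cKO 2, and *Ly75* (1.14, SE 0.36) passed only without cKO 2, and was 0.60 without cKO 1. WT 1, the library with the lowest collagen share and the lowest sum of both collagen lists, had the highest sum of macrophage and dendritic cell markers. The part of these cells in the collagen values was not tested.

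**Figure D4:**
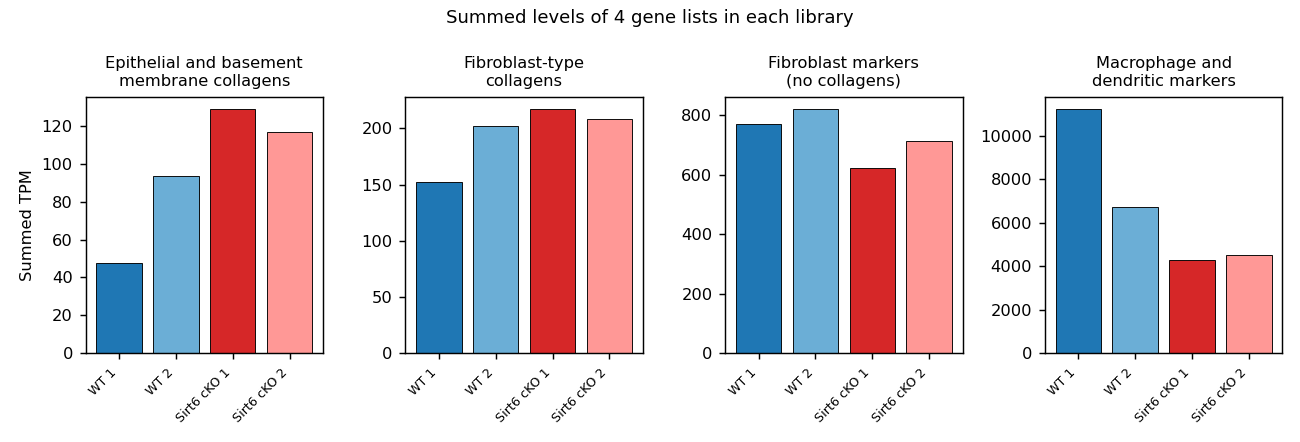
Summed TPM (bars, linear axes from 0) in each library for the epithelial and basement membrane collagens, the fibroblast-type collagens, the fibroblast markers that are not collagens, and the macrophage and dendritic cell markers. The epithelial sum is 47.7 in WT 1 and 129 in cKO 1, while the macrophage sum is 11230 and 4259. Most of the macrophage sum is *Lyz2* (9532 and 3664).

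Genes that act around collagen, 63 in all, were followed as 4 lists, for chain modification, processing and cross-linking, receptors, and degradation. They are called helper genes for short, although the last 2 lists hold receptors and genes of collagen breakdown. Of 60 that passed the filter, 4 (6.67%) were higher and 5 (8.33%) were lower at a nominal p of 0.05, beside 5.27% and 3.32% of all genes tested, and the median log2 FC was 0.01. Among 21 genes that modify, fold and export the chains in the endoplasmic reticulum, 0 were called in either direction by edgeR and 0 passed an adjusted p of 0.05 in DESeq2, with *P4hb* and *Ppib* as the highest. Of the 9 calls, 6 fell in the list of 18 genes that trim, cross-link or organise collagen outside the cell, with 3 higher and 3 lower (16.7% each). In DESeq2, 2 of this list passed an adjusted p of 0.05, *Pxdn* (0.0262) and *Lum* (0.0351), where 1.83% of all genes did. *Pxdn*, which encodes the peroxidase that cross-links type IV collagen, had 1376, 2070, 4073 and 3772 counts and a log2 FC of 1.24 (SE 0.30, unadjusted p = 0.00809 in edgeR). It passed 0.05 without each library in turn.

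The lysyl oxidases, which cross-link collagen through lysines, went in different directions. *Lox* had 440, 1059, 152 and 243 counts, a fall of 1.89 on the log2 scale (SE 0.58), which was -1.09 without WT 2 and -1.62 without cKO 1 and then missed 0.05, and -2.42 without WT 1. *Loxl4* had 142, 378, 1142 and 795 counts (log2 FC 1.95, SE 0.59) and *Loxl3* 2255, 2394, 3391 and 3521 counts (0.62, SE 0.225). *Loxl4* missed 0.05 without cKO 1 (1.62) and was 1.37 without WT 1 and 2.85 without WT 2, and *Loxl3* missed it when any 1 library was left out, between 0.54 and 0.69. The small matrix proteins *Lum* (lumican), which spaces fibrils, and *Sparc*, which binds collagen, were lower. *Lum* had 2586, 1987, 1051 and 943 counts (log2 FC -1.14, SE 0.29) and missed 0.05 without cKO 2 (-1.04). *Sparc* had 3887, 3798, 2213 and 2285 counts (-0.72, SE 0.22) and missed it in each of the 4 fits with 1 library left out, between -0.75 and -0.72.

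Of 9 collagen receptors tested, 1 (11.1%, beside 5.27% of all genes) was higher. This was the integrin chain *Itga1*, with 1252, 1481, 2604 and 2087 counts and a log2 FC of 0.84 (SE 0.29). It missed 0.05 without WT 1 (0.68) or cKO 1 (0.62). *Itgb1*, its partner chain and the highest of the list, had 24438, 23567, 13824 and 32580 counts, and its log2 FC of -0.01 was 0.45 without cKO 1 and -0.72 without cKO 2. Of 12 degradation genes tested, 2 (16.7%, beside 3.32% of all genes) were lower. These were the gelatinase *Mmp2* (1502, 1383, 702 and 575 counts) and the collagenase *Mmp8* (1203, 1374, 576 and 611 counts). Their log2 FCs were -1.12 (SE 0.31) and -1.07 (SE 0.30). *Mmp2* missed 0.05 without cKO 2 (-0.96), and *Mmp8* kept it only without WT 1 (-1.203). Of 20 laminins, nidogens and hemidesmosome partners, 1 (5%) was higher, near the 5.27% of all genes. This was the laminin chain *Lama3*, with 2894, 3813, 5235 and 6357 counts and a log2 FC of 0.84 (SE 0.25). It missed 0.05 without WT 1 (0.61) or cKO 2 (0.72). The median of these 20 genes was 0.09.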

How the data were processed

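RNA of sorted mTECs was sequenced for 2 libraries of each genotype. Adaptors were removed by the authors with Trim Galore, and reads were placed on mm10 and quantified per gene (HISAT2 2.1.0 and StringTie 1.3.3 per the submitters' processing notes). The authors deposited whole-number counts without normalization, and TPM values whose last line, a column total, was left out. The gene annotation and strand setting are not given in the sources used here. The collagens and all lists were chosen with earlier results of these data known, so lists are described by counts and medians. Counts were tested in R 4.3.3 with edgeR 4.0.16 (TMM, filterByExpr at 10 counts per library and 15 in total, glmQLFit, glmQLFTest), which kept 18547 genes, and adjusted by the Benjamini-Hochberg method over them. The standard error is the log2 fold change divided by the root of the F statistic. Unless another threshold is named, higher, lower and called refer to a nominal p of 0.05. An exact permutation test of 2 libraries against 2 cannot go below p = 0.333. Values are given for collagens that were called, that had the 10 highest mean TPM or that belong to the epithelial and basement membrane list, for called helper genes, and for further members chosen after their values were seen. Alternatives were DESeq2 1.42.0, other filters and scalings, a replicate block, limma 3.58.1 on log2(TPM + 1) and log2(TPM + 0.1), and each library left out, where the lone library is assumed to vary like the others. Positions and overlaps came from GENCODE M21. Each pair of libraries differed by more than sampling noise. The edgeR procedure was run on simulated data whose spread between libraries was set below that of these data (biological coefficient of variation 0.557). That run therefore does not show how the test behaves at the spread seen here. Total counts lay between 61102704 and 65907745. The limit for a count of 0 was set at 3 counts and, like the exact interval of a ratio of counts, covers counting error only.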

Additional observations from a re-analysis of the deposited data

How the results depend on the processing

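The 9 called collagens kept their direction under every alternative that could be fitted to all 4 libraries (70 values, 0 reversed). The groups did not overlap in any of these genes, so refits of the same libraries could hardly have reversed them. *Col4a4* and *Col24a1* did not pass the filter of TPM over 0.1 in all libraries, so that 0 collagens were lower there. With 1 library left out, between 3 and 11 collagens were higher and between 1 and 2 lower, and *Col4a4*, *Col12a1* and *Col27a1* passed a nominal p of 0.05 each time. The count of higher collagens was 3 without cKO 1, 5 without cKO 2, 7 without WT 1 and 11 without WT 2. Over all genes, the number of calls and the share of them that were higher also changed with the library left out. This swing is therefore not particular to the collagens. With library size alone or upper quartile normalization, 2 collagens were lower. With DESeq2, 4 collagens passed an adjusted p of 0.05. The replicate numbers carry no stated pairing, and same-numbered libraries did not deviate together (r = -0.0544 across 18547 genes, which are not independent replicates). With the replicate number as a block, 8 collagens were higher and 2 lower, 0 passed an adjusted p of 0.05, 2 helper genes were higher in place of 4, the median of the type VI chains was -0.0778 and *Col6a3* stood at 0.0604. That median was -0.27 with library size alone or upper quartile normalization, -0.0746 with limma at a pseudocount of 1 TPM and -0.0935 at 0.1 TPM, where *Col6a3* stood at 0.0032 and 0.0443. *Col11a2* stood at -0.0113 with library size alone. With 1 library left out, the median log2 fold change lay between 0.21 and 0.68 for all collagens, 0.20 and 1.202 for the epithelial and basement membrane list, 0.32 and 0.81 for the fibrillar chains, 0.29 and 0.69 for the fibroblast-type list and -0.26 and 0.0091 for the type VI chains. The highest values of the first 2 of these came without WT 2. Helper genes that were higher then numbered from 1 to 4 and those lower from 2 to 5. Single genes that turned their direction, none of them called, ranged from -2.31 to 1.45 (*Col11a1*), -0.39 to 0.74 (*Col11a2*), -0.42 to 1.24 (*Col16a1*), -0.0397 to 0.57 (*Col1a1*), -0.82 to 0.33 (*Col4a3*), -1.07 to 0.33 (*Col5a2*), -0.54 to 0.0156 (*Col6a2*), -0.63 to 0.73 (*Col6a3*), -0.26 to 1.39 (*Col7a1*), -0.24 to 0.0429 (*Col9a1*), -0.72 to 0.45 (*Itgb1*), -1.13 to 0.21 (*Mmp14*) and -0.12 to 0.38 (*Timp3*). Besides *Col5a1* and *Col17a1*, calls were lost for *Loxl3* (upper quartile, library size alone, block), *Itga1* (block, limma), *Col9a2* and *Lama3* (limma at 1 TPM). The cause was not tested. The median of all genes shifted by -0.0885 at most (library size alone) under these scalings. Genes with few counts, such as *Col4a4* and *Col24a1*, have sizes that depth limits.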

Other observations

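Among 8 cartilage markers that are not collagens, 1 (12.5%) was higher in edgeR (nominal p of 0.05) and none (0) lower. In a list of 7 cartilage collagens, 2 (28.6%) were higher and 0 lower. The shares over all genes were 5.27% and 3.32%. This list held *Col2a1*, *Col9a1*, *Col9a2*, *Col9a3*, *Col10a1*, *Col11a1* and *Col11a2*. It left out *Col27a1*, which was also higher. The higher marker was *Sox9*, a transcription factor of cartilage and of many epithelia, with 12248, 13319, 16603 and 16546 counts (WT 1, WT 2, cKO 1, cKO 2) and a log2 fold change of 0.43 (standard error 0.17). It missed the threshold when any 1 library was left out, between 0.32 and 0.51, and in 5 of 8 alternatives with all 4 libraries, among them DESeq2 (unadjusted p = 0.0541) and upper quartile normalization. Its adjusted p was 0.57 in edgeR. The summed TPM of the 8 markers was 292, 322.5, 316.7 and 356, so that the groups overlapped. The smooth muscle myosin gene *Myh11* was higher, with 4744, 6876, 12853 and 13400 counts and a log2 fold change of 1.22 ± 0.24 (standard error). Its adjusted p was 0.54 in edgeR and 0.00398 in DESeq2. The other 6 markers of pericytes and smooth muscle did not pass a nominal p of 0.05 in edgeR. Thus 14.3% of this list was higher, beside 5.27% of all genes.

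Collagen XXVI is listed under its older symbol *Emid2*, outside the naming rule, and had 224, 202, 254 and 259 counts.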
